A study of Mus musculus with 8 samples.

Results

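The 9 genes described here, Mbp, Mog, Mag, Mobp, Cnp, Cldn11, Mal, Opalin and Ermn, encode structural or membrane-associated proteins of central nervous system myelin. They were taken by name from the gene column of the deposited count tables, which list 17700 genes, and all 9 had enough counts to be tested. RNA-seq was done on cerebellum of 8 C57BL/6JN mice, in a study whose title relates DNA hydroxymethylation within genes to the size of transcriptional changes in aging. The old group held 2 males, of 93 weeks (old 1) and 83 weeks (old 3), and 2 females, of 83 weeks (old 2) and 102 weeks (old 4). The young group held 2 males of 19 weeks (young 1 and young 2) and 2 females, of 19 weeks (young 3) and 22 weeks (young 4). The labels name no drug, allele or transgene in either group. The design text of the series names liver as the tissue, while every sample label gives cerebellum, and 13 granule neuron markers summed to between 4953 and 8515 CPM in the 8 libraries. Levels are given as CPM, counts scaled to library size with TMM factors.

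Myelin is the compacted membrane that oligodendrocytes wrap around axons, and in the cerebellum it lies mostly in the white matter beneath the granule cell layer. Its mature oligodendrocytes switch on the myelin genes together under the transcription factors SOX10 and MYRF. Mbp (myelin basic protein) and Mobp (myelin-associated oligodendrocytic basic protein) encode small basic proteins of compact myelin, and Cldn11 encodes the claudin of its tight junctions. Mal encodes a proteolipid of myelin membrane traffic, Cnp an enzyme of the non-compact cytoplasmic channels, and Ermn a cytoskeletal protein of the oligodendrocyte. Mag and Mog encode immunoglobulin-family glycoproteins, the first facing the axon and the second on the outermost lamella, and Opalin encodes an oligodendrocyte membrane glycoprotein.

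The sequence before the transcription start is shown for 3 of the members. Mobp and Mag are a pair whose count ratio did not overlap between old and young mice, and Mag and Cnp are the members with both kinds of motif. Each line gives 250 bases 5′ to 3′ on the gene's strand, ending at the base before a RefSeq transcription start in GRCm38.p6. Capitals mark SOX-type letters, ACAAAG or ACAATG, and MYRF-type letters, CTGGCAC or CTGGTAC, on either strand.
Mobp, chr9:120149492-120149741, plus strand: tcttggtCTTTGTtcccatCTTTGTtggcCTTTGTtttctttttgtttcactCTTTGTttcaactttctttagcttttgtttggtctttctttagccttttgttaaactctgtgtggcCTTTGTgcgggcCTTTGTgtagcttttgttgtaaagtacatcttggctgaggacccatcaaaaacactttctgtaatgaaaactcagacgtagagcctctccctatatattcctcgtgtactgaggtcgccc
Mag, chr7:30914864-30915113, minus strand: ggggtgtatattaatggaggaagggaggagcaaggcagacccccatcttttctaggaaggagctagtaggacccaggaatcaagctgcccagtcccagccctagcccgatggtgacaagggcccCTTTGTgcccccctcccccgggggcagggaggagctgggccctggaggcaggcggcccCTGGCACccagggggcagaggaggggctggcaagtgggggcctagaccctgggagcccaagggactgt
Cnp, chr11:100574689-100574938, plus strand: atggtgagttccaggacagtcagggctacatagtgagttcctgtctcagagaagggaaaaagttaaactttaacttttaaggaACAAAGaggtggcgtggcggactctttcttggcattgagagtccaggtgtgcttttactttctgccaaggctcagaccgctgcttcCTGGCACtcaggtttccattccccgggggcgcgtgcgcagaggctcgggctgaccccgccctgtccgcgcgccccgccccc

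The Mobp window held ACAAAG 6 times, and it was the only 1 of 32851 RefSeq windows of this length with 6 or more. That cut-off was Mobp's own count, so this rarity is not a test. The printed Mag and Cnp windows each held 1 SOX-type and 1 MYRF-type match, a combination found in 1.55% of all windows. Windows were on hand for 8 of the 9 members, with 3 windows for Mag, of which the third held no match, and 1 for each other. Counted by gene over any of its windows, 5 of the 8 members had a SOX-type match, while 25.2% of single windows had one. By the same count 3 of the 8 members had a MYRF-type match, while 5.93% of single windows had one. Mog held the MYRF-type letters alone, Mobp, Opalin and Ermn the SOX-type letters alone, and Cldn11 and Mal neither. These are matches of letters in short windows, chosen to be shown after the counts had been seen, and binding was not measured.

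Mbp and Mobp were the most abundant members by CPM, and Opalin was the least abundant. Per kilobase of annotated exon, over the 8 libraries, Mbp stood at 194 ± 29.3 CPM per kb (SD, n = 8). Cnp at 139 ± 21.9 and Mobp at 134 ± 23.2 CPM per kb followed and did not differ from each other beyond their spread. Cldn11 at 70.8 ± 19.8, Mal at 55.0 ± 14.0 and Ermn at 49.8 ± 8.31 CPM per kb formed the next group, with overlapping spreads. Mag at 30.2 ± 6.52 and Mog at 26.2 ± 5.13 CPM per kb also overlapped, and Opalin was at 2.48 ± 0.932 CPM per kb. These SDs include variation between libraries that the members largely share. Their overlap therefore does not compare the genes within a library. Lengths are the union of all exons in GENCODE M21 (GRCm38), 8469 bases for Mbp, so a gene whose long exons are little used reads too low on this scale. Mbp spans 82475146 to 82585637 on chromosome 18 and also gives rise to the golli transcripts, which the gene-level counts do not separate. Mobp spans 120149707 to 120181484 on chromosome 9, Mag 30899176 to 30914873 on chromosome 7 and Mog 37010743 to 37023398 on chromosome 17. Of the exon bases of Cnp, 4.23% overlap those of Dnajc7 on the other strand, and of the exon bases of Ermn 6.52% overlap those of Galnt5. With the strand setting not given in the sources used here, reads there may be shared.

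**Figure D1:**
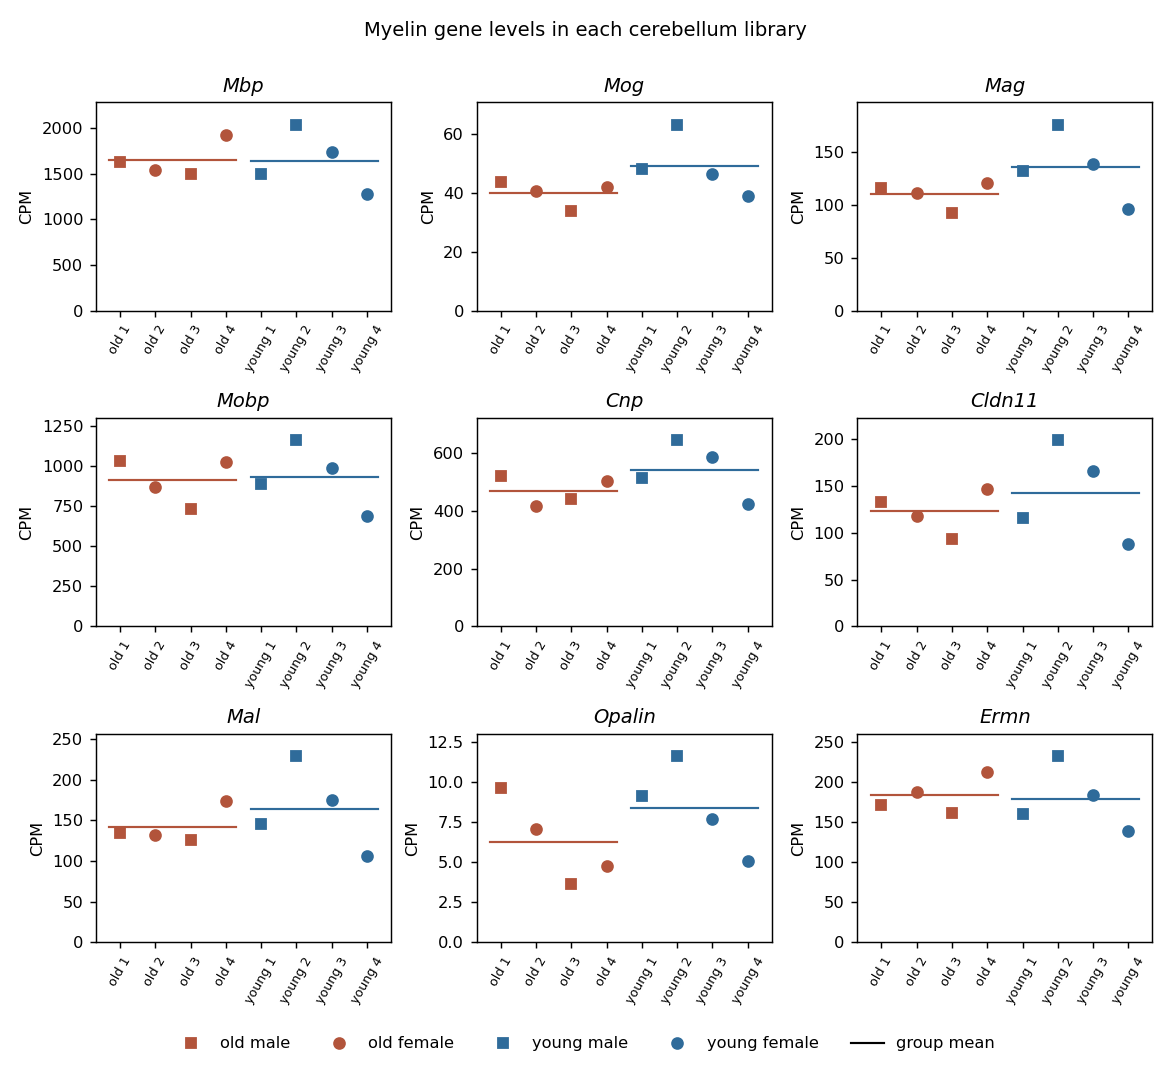
CPM of each myelin gene (y axes, linear from 0) in each of the 8 libraries (x axes), red for old and blue for young, squares for males and circles for females, with lines at the group means. Young 2 is the highest library in all 9 panels, and the old and young points overlap in every panel.

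No member passed the test for age, and the levels of old and young mice overlapped for each of the 9. The quasi-likelihood test of edgeR, adjusted by Benjamini-Hochberg over 14191 genes, gave adjusted p between 0.484 and 0.987, and no member had an unadjusted p under 0.05. Over all genes, 0.12% passed for age, 11% had an unadjusted p under 0.05 and 6.57% had no overlap of old and young values. DESeq2 and limma-voom also called none of the 9. Of the 9 log2 fold changes, old minus young, 7 were negative, against 51.4% of all genes, and their median was -0.20, against -0.01 over all genes tested. Without young 2 the median was 0.0053 and 4 members were negative. With each library left out in turn the median ranged from -0.39 to 0.0053. Without young 4 all 9 members were negative and 4 had an unadjusted p under 0.05, with none passing. In that fit 1528 of all 14581 genes had an unadjusted p under 0.05. In bulk tissue, fewer oligodendrocytes and less myelin RNA per oligodendrocyte cannot be told apart.

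The basic proteins of compact myelin had nearly equal means at both ages. Mbp was at 1630, 1540, 1496 and 1924 CPM across old mice 1 to 4 and 1498, 2039, 1743 and 1278 CPM across young mice 1 to 4. The young mice thus held both the highest and the lowest value. The log2 fold change was 0.01 ± 0.14 (SE), with a 95% interval of -0.30 to 0.32. Mobp was at 1029, 870, 730 and 1022 CPM across old mice 1 to 4 and 885, 1157, 984 and 686 CPM across young mice 1 to 4. Its log2 fold change was -0.02 ± 0.16 (SE), with an interval of -0.38 to 0.35. Ermn, the cytoskeletal protein, behaved alike in these values. It was at 172, 188, 161 and 212 CPM across old mice 1 to 4 and 160, 232, 185 and 139 CPM across young mice 1 to 4, with a log2 fold change of 0.04 ± 0.16 (SE). The signs of these 3 small differences changed under several alternatives.

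The glycoproteins of the sheath's inner and outer faces had lower means in old mice, within the spread between animals. Mag was at 116, 111, 92.8 and 121 CPM across old mice 1 to 4 and 132, 176, 138 and 96.5 CPM across young mice 1 to 4. Only young 4 lay among the old values. The log2 fold change was -0.29 ± 0.16 (SE), with an interval of -0.65 to 0.08. Mog was at 43.6, 40.7, 34.0 and 42.1 CPM across old mice 1 to 4 and 48.2, 63.3, 46.5 and 39.0 CPM across young mice 1 to 4. Here too young 4 was the single young library among the old ones. Its log2 fold change was -0.29 ± 0.14 (SE), with an adjusted p of 0.484 by edgeR's test, the lowest of the 9. Opalin, with 23 to 74 counts per library, was at 9.63, 7.05, 3.62 and 4.73 CPM across old mice 1 to 4 and 9.15, 11.6, 7.67 and 5.05 CPM across young mice 1 to 4. Old 3 and old 4 were the lowest libraries for Opalin, and its log2 fold change was -0.39 ± 0.29 (SE).

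The remaining members also had means that differed by less than their spread. Cnp, the marker enzyme of non-compact myelin, was at 519, 415, 440 and 502 CPM across old mice 1 to 4 and 513, 644, 585 and 425 CPM across young mice 1 to 4. Its log2 fold change was -0.20 ± 0.12 (SE), with an interval of -0.47 to 0.06. Cldn11 and Mal spread most among the members outside Opalin, and mainly among the young mice. Cldn11 was at 133, 118, 92.9 and 146 CPM across old mice 1 to 4 and 116, 198, 166 and 88.2 CPM across young mice 1 to 4, a 2.25-fold range in the young. Mal was at 134, 132, 126 and 174 CPM across old mice 1 to 4 and 146, 229, 176 and 106 CPM across young mice 1 to 4, a 2.17-fold range. Their log2 fold changes were -0.21 ± 0.27 and -0.20 ± 0.23 (SE), so the intervals, -0.85 to 0.44 and -0.73 to 0.33, leave room for a change of either sign.

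The libraries at the extremes were largely shared by the 9 genes, while the order of the others differed between genes. Young 2 was the highest of the 8 libraries for 9 of 9 members, against 10% of all genes tested. Young 4 was the lowest for 5 members and among the lowest 2 for 8, while 13.3% of all genes were lowest there. Old 3 was the lowest for 3 members, against 10.3% of all genes, and among the lowest 2 for 7. Summed over the 9 genes, levels were 3786, 3422, 3177 and 4147 CPM across old mice 1 to 4 and 3507, 4751, 4031 and 2863 CPM across young mice 1 to 4. The SD of log2 CPM among the 4 young mice was between 0.26 and 0.52 for the members, with a median of 0.32, against a median of 0.18 over all genes tested. Among the 4 old mice the members' median SD was 0.17, against 0.16 over all genes. Over the genes with a mean log2 CPM of 5 or more, which 8 of the members reach, the median SD was lower, at 0.12 in old and 0.13 in young mice. Whether the spread of the members differs between the ages was not tested.

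Opalin departed from the other 8 most clearly in old 4. It was at 4.73 CPM there, its second lowest value, where Mbp, Ermn, Cldn11 and Mal were above their means. In old 1 it was at 9.63 CPM, its second highest value, and Mobp was also second highest there. The log2 deviation in old 1 was 0.47 for Opalin and 0.18 for Mobp. Markers of another region moved with Opalin. The 12 brainstem neuron markers, all listed in the tables, summed to 68.5, 53.8 and 52.2 CPM in old 1, young 1 and young 2, the 3 libraries highest in Opalin. In the other 5 libraries they summed to between 2.39 and 13.1 CPM. Slc6a2, the noradrenaline transporter, had 128, 250 and 132 counts in those 3 libraries, and Slc6a4, the serotonin transporter, was at 0 counts in 5 of the 8 libraries, young 1 among them. Old 1, young 1 and young 2 are all males, while the remaining male, old 3, was at 4.25 CPM summed over the brainstem markers. Of these markers 6 were tested, and 0 had a positive log2 fold change, female minus male, with a median of -2.40. How far brainstem tissue and sex each enter the Opalin values was not tested. Of the Schwann cell myelin genes 4 were tested and none passed for age by edgeR's test, with no unadjusted p under 0.05. Drp2, a dystrophin-related protein, stood at 57.1 ± 4.38 CPM in old and 66.2 ± 14.2 CPM in young mice (SD, n = 4 each).

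**Figure D2:**
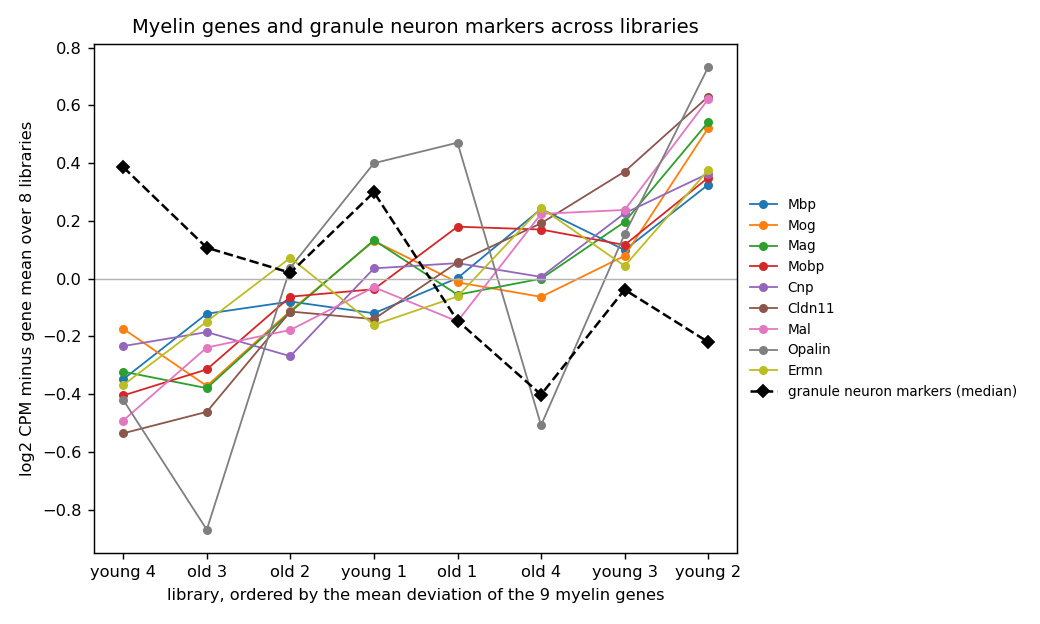
Deviation of log2 CPM from each gene's mean (y axis) in the 8 libraries (x axis, ordered by the members' mean deviation), with 1 line per myelin gene and a dashed black line for the median of 13 granule neuron markers. Most myelin genes lie lowest in young 4 or old 3 at the left, and all lie highest in young 2 at the right. Opalin lies above the other myelin genes in old 1 and below them in old 4. The granule neuron line is highest in young 4 and lowest in old 4.

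Granule neuron markers, which belong to the most numerous cerebellar neurons, ran partly against the members. Their score, the median deviation of log2 CPM from the gene means, was -0.15, 0.02, 0.11 and -0.40 across old mice 1 to 4 and 0.30, -0.22, -0.04 and 0.39 across young mice 1 to 4. The library with the highest score, young 4, had the lowest sum of members, and young 2, with the highest sum, had a score of -0.22. With this score added to the model as a covariate, all 9 members had negative log2 fold changes for age, against 49.8% of all genes, and 4 passed the adjusted threshold. Those 4 were Mag at -0.47 ± 0.09, Cnp at -0.36 ± 0.07, Cldn11 at -0.49 ± 0.10 and Mal at -0.45 ± 0.09 (SE), with adjusted p between 0.0391 and 0.0429 by edgeR. Over all genes 0.754% passed in that fit, and 0.338% passed with lower values in old mice. Mog stood at -0.43 ± 0.11, Mobp at -0.22 ± 0.09, Mbp at -0.17 ± 0.07, Ermn at -0.14 ± 0.09 and Opalin at -0.56 ± 0.28 (SE), and none of these 5 passed. No member passed in the same fit without young 1, without young 2 or without young 3, 1 passed without old 4 (Cldn11), and 3 or 4 passed without each other library. Of the 13 granule neuron markers 12 themselves had negative values for age, with a median of -0.18, so score and age are not independent in these mice.

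**Figure D3:**
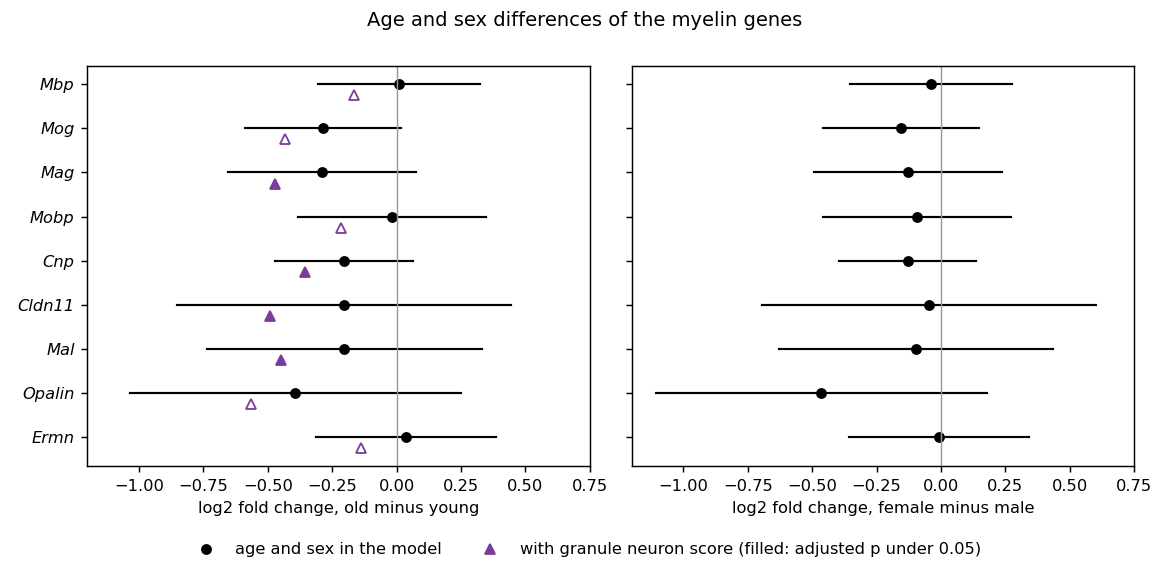
Log2 fold changes (x axes) of the 9 myelin genes (y axis) for old minus young at left and female minus male at right, with black points and 95% intervals from the model with age and sex, and purple triangles from the model that also holds the granule neuron score. All 18 black intervals cross 0, and the filled triangles mark Mag, Cnp, Cldn11 and Mal.

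Ratios of members within a library do not depend on scaling between libraries. For each of the 36 pairs of members the log2 ratio of counts was compared between ages, a comparison chosen after the levels had been seen. The ages did not overlap for 4 of the 36 pairs, and Mag took part in 3 of them. The pairs share members, so these 3 are not separate results. The share without overlap among ratios of other genes was not counted. Mag had 71.3, 72.3, 62.0 and 62.8 counts per 1000 counts of Mbp across old mice 1 to 4, against 88.4, 86.3, 79.4 and 75.5 across young mice 1 to 4. Relative to Mobp it had 113, 128, 127 and 118 counts per 1000 across old mice 1 to 4 and 150, 152, 141 and 141 across young mice 1 to 4. Every old mouse thus had less Mag per Mbp and per Mobp than every young mouse, young 4 included.

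Relative to Ermn, Mag had 677, 592, 574 and 569 counts per 1000 across old mice 1 to 4 and 827, 757, 750 and 696 across young mice 1 to 4. Mog, the outer surface glycoprotein, had 42.4, 46.8, 46.5 and 41.2 counts per 1000 of Mobp across old mice 1 to 4 and 54.5, 54.7, 47.3 and 56.9 across young mice 1 to 4. Old 2 and young 3 differed by little in that ratio. The log2 differences of these ratios, old minus young, were -0.26 for Mag to Mobp, -0.33 for Mag to Ermn, -0.27 for Mog to Mobp and 0.30 for Mbp to Mag. Each had an exact two-sided permutation p of 0.0286, the smallest that 4 against 4 allows, and 0.257 after Benjamini-Hochberg adjustment over the 36 pairs, so none passed. With this smallest p, no pair could pass unless most of the 36 reached it. Old minus young, the log2 ratios Mbp to Mobp, Mbp to Ermn and Mobp to Ermn stood at 0.03, -0.03 and -0.07, and Mog to Mag at -0.01. With each library left out in turn, Mag to Mobp stayed between -0.29 and -0.23.

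**Figure D4:**
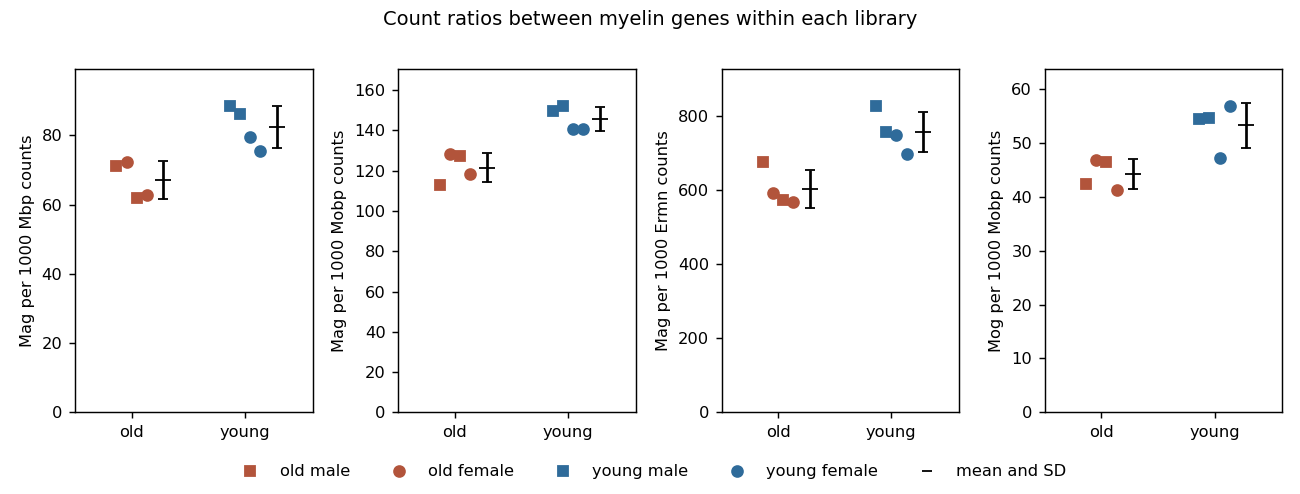
Count ratios between myelin genes in each library (y axes, counts of the first gene per 1000 counts of the second, from 0) for old and young mice (x axes), with points as in the plot of CPM by library and black marks for the mean and SD of 4. In the 4 panels each old point lies below each young point, by the least for Mog per 1000 Mobp counts (46.8 against 47.3).

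No member passed for sex either. Log2 fold changes, female minus male, were negative for 9 of 9 members, from -0.47 for Opalin to -0.01 for Ermn, with a median of -0.10, while 47.1% of all genes were negative. The lowest adjusted p by edgeR's test was 0.930, no member had an unadjusted p under 0.05, and DESeq2 and limma-voom called none. Over all genes 0.0423% passed for sex and 4.76% had an unadjusted p under 0.05. Males held both the highest library of every member, young 2, and the lowest for 3 of them, old 3. Females held the lowest library of the rest, young 4 for 5 members and old 2 for 1. Mbp was at 1621 ± 277 CPM (SD, n = 4) in females and 1666 ± 257 CPM (SD, n = 4) in males. Without young 2, and likewise without young 4, only 3 of the 9 values stayed negative.

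The difference between the sexes in the age effect, females minus males, was positive for all 9 members. It ran from 0.13 for Cnp to 0.65 for Mal on the log2 scale. The median was 0.54, against -0.01 over all genes tested. The share of positive values over all genes was not counted. The members largely share their variation between libraries, so these are not 9 separate results. No member passed, with an adjusted p of 1.0 for each by edgeR's test and no unadjusted p under 0.05. No gene passed by that test (0%), and 2.3% of all genes had an unadjusted p under 0.05. DESeq2 called 1 gene and no member, though 2 members had an unadjusted p under 0.05, as had 175 of all 14191 genes. Each cell of age and sex held 2 mice, with young 2 in the young males and young 4 in the young females. In males both old values lay below both young values for Mog, Mag and Mal, and in females both old values of Ermn lay above both young values. With 2 mice against 2, such separation arises easily, and its share over all genes was not counted. With each library left out in turn the median ranged from 0.25 without young 2 to 0.76 without young 3. Each of these fits left a single mouse in a cell, so no p-values are given for them.

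Other oligodendrocyte genes also had no call for age. In 5 further lists no gene passed for age by edgeR's test, and DESeq2 and limma-voom called none. The lists held 13, 8, 17, 11 and 9 tested genes, in the order given here. Of these 2, 0, 3, 0 and 1 had an unadjusted p under 0.05 by edgeR, against 11% of all genes. Among 13 other proteins of the sheath and paranode 9 had negative values, with a median of -0.10. Cd9, a tetraspanin, stood at 0.50 ± 0.17, Cntn2, an axon-glial adhesion protein at the juxtaparanode, at -0.21 ± 0.08 and Jam3, a junction protein, at 0.28 ± 0.14 (SE). Among 8 myelin lipid synthesis genes 5 were negative, with a median of -0.08. The desaturase Scd2 stood at -0.15 ± 0.13, Gamt, of creatine synthesis, at -0.26 ± 0.22 and Aspa, the aspartoacylase, at 0.27 ± 0.24 (SE).

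Of 18 genes for cytoplasmic and secreted proteins of mature oligodendrocytes 17 were tested, and 10 were negative, with a median of -0.11. Trf, the iron carrier transferrin, had 71.5 ± 4.72 CPM in old and 90.7 ± 10.1 CPM in young mice (SD, n = 4 each). Apod, the lipid-binding apolipoprotein D, had 109 ± 22.9 and 73.0 ± 14.7 CPM. Hapln2, a link protein of the node of Ranvier, had 42.1 ± 6.30 and 33.3 ± 5.12 CPM. The 3 log2 fold changes were -0.34 ± 0.09, 0.58 ± 0.17 and 0.34 ± 0.14 (SE), with adjusted p of 0.216, 0.261 and 0.384 by edgeR's test, so oligodendrocyte genes differed from each other in sign within 1 list.

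Among 11 transcription factors and RNA regulators 6 were positive and 5 negative, with a median of 0.00. Sox10, the factor that holds oligodendrocyte identity, stood at -0.24 ± 0.15, Nkx2-2 at -0.33 ± 0.19 and the zinc finger gene Zfp536 at 0.15 ± 0.09 (SE). Among 9 genes of precursors and newly formed oligodendrocytes 5 were positive, with a median of 0.03. Gpr17, a receptor of cells about to differentiate, had 21.1 ± 4.58 CPM in old and 36.0 ± 9.30 CPM in young mice (SD, n = 4 each), a log2 fold change of -0.76 ± 0.22 (SE) with an adjusted p of 0.241 by edgeR. It passed with the granule neuron score as covariate, at -1.01 ± 0.13 and an adjusted p of 0.00471. Without old 2, old 3 and young 4, the libraries richest in liver transcripts, it passed at -0.75 ± 0.16 with an adjusted p of 0.0175. The other genes named first by p in that list were Sox6 at 0.18 ± 0.12 and Tmem100 at -0.13 ± 0.23 (SE).

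A score of the 3 lists of mature oligodendrocyte genes, which hold no member, was also tried as a covariate. Mag then stood at -0.23 ± 0.07, Mog at -0.24 ± 0.09 and Cnp at -0.16 ± 0.07 (SE), with unadjusted p under 0.05 but adjusted p of 0.123, 0.172 and 0.269 by edgeR. No member passed, while 1.76% of all genes did and 16.5% had an unadjusted p under 0.05. Mbp stood at 0.07 ± 0.07, Mobp at 0.04 ± 0.07 and Ermn at 0.10 ± 0.07 (SE). In this fit Cd9, Apod and Il33, an alarmin of oligodendrocytes and astrocytes, passed at 0.55 ± 0.11, 0.63 ± 0.11 and 0.53 ± 0.11, and Gpr17 at -0.69 ± 0.14 (SE). Cd9, Apod and Il33 are themselves among the genes of the score. This covariate was chosen after the data had been seen.

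**Figure D5:**
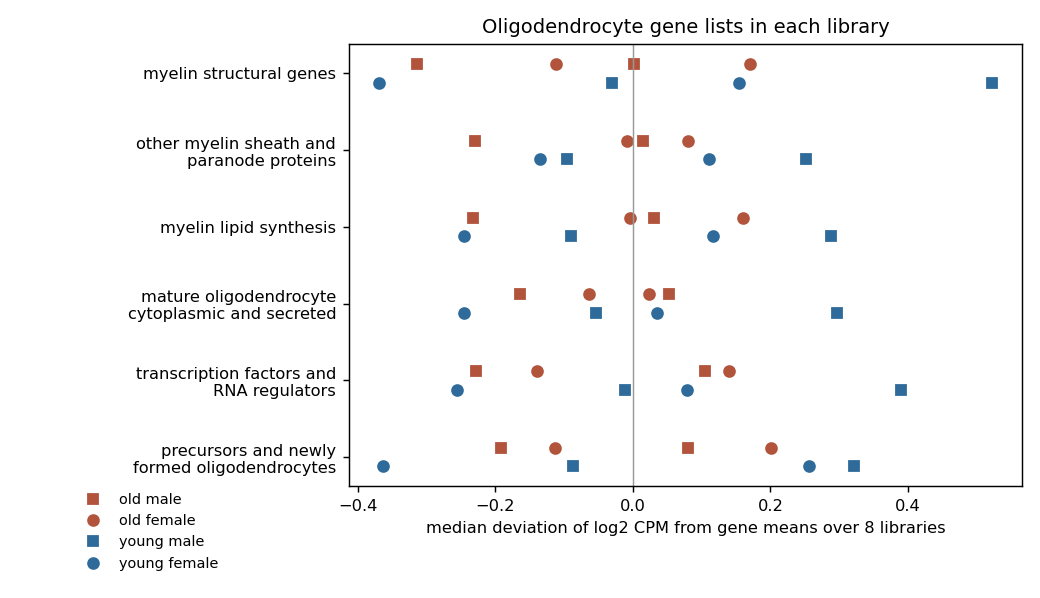
Median deviation of log2 CPM from the gene means (x axis) of the 9 myelin genes and 5 further oligodendrocyte lists (y axis) in each library, red for old and blue for young, squares for males and circles for females. Young 2, the blue square at the right, has the highest value of each list, and old and young libraries overlap in each.

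Young 2 had the highest score of each of the 5 further oligodendrocyte lists, as it had of the members, and young 4 had the lowest of 4 of them, with old 3 lowest in the fifth. Car2, the carbonic anhydrase of oligodendrocytes, was the gene most like the members, with a Pearson correlation of 0.99 between its log2 CPM and the members' mean deviation over 8 libraries that share preparation and depth. It ranged from 103 to 124 CPM in old and from 102 to 146 CPM in young mice. Efnb3, a membrane ephrin, Fat3, a protocadherin-related adhesion gene, and Tmeff1, a transmembrane protein, followed at 0.97 each. Kif21b, a kinesin, Rgs4, a regulator of G protein signalling, and 5031439G07Rik were at 0.96, 0.96 and 0.95. The most opposite were Pgm3, Tmem178, Txndc11 and Arfgap2, at -0.97, -0.97, -0.97 and -0.96. Of 35 other mature oligodendrocyte genes at these levels 14, or 40%, reached 0.8, against 3.5% of all 11041 genes compared. Among these 35 listed genes, those far from the members' pattern included Cntn2 at -0.01, Hapln2 at 0.15 and Apod at 0.20. Cntn2 was highest in young 1 and young 4, at 576 and 513 CPM, the libraries with the highest granule neuron scores. Which cells gave its counts was not tested.

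Markers of other cells moved between the ages or libraries as well. Microglia markers had positive log2 fold changes for age in 10 of 10 genes, with a median of 0.97 and summed levels of 227 to 456 CPM in old and 138 to 180 CPM in young mice. None of them passed, though 8 had an unadjusted p under 0.05 by edgeR's test, against 11% of all genes. Among 12 markers of astrocytes and Bergmann glia 10 had negative values and 1 passed, the fatty acid binding protein Fabp7, at -0.82 ± 0.12 (SE). Over all genes 51.4% had negative values for age and 0.12% passed. The 9 choroid plexus markers summed to 49.5, 59.8 and 37.3 CPM in old 3, young 3 and young 4, and to between 298 and 948 CPM in the other 5 libraries. The 7 liver genes summed to 84.2, 23.6 and 21.2 CPM in old 2, old 3 and young 4, against 0.682 to 9.63 CPM elsewhere. The 2 libraries lowest in the members, young 4 and old 3, stood apart in both of these lists. Young 3, also low in choroid plexus markers, was above the mean for 9 of 9 members. Old 2, the richest in liver genes, had 3422 CPM summed over the members, against 3177 CPM in old 3 and 2863 CPM in young 4. With a choroid plexus score as covariate the members' log2 fold changes for age were negative for 9 of 9, with a median of -0.27, and 3 had an unadjusted p under 0.05 but none passed by edgeR's test. In that fit 1378 of all 14191 genes had an unadjusted p under 0.05. No member passed for age without old 2, old 3 and young 4, or without old 3, young 3 and young 4. The part of liver transcripts was not tested beyond this.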

How the data were processed

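Trizol-extracted, column-purified total RNA of frozen cerebellum was sequenced after ribosomal RNA depletion, per the labels' protocols. The authors deposited raw counts per gene, 1 table per library, per the file headers. The submitters' processing notes name Trimmomatic 0.39, STAR 2.7.5b, featureCounts and the builds GRCm38 and mm10. Not given in the sources used here are the annotation, strand setting and multi-mapping rule. Spreadsheet dates replaced 24 gene names in 7 of 8 libraries, and libraries were joined by line. Totals were 6079485 to 7236720 counts, so 3 counts were 0.421 to 0.511 CPM (counting error only). No libraries agreed within sampling noise. The design text calls the samples biological replicates.

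Genes were kept by filterByExpr (minimum 10 counts, 4 age-by-sex cells), scaled by TMM and tested with edgeR 4.0.16 (R 4.3.3) quasi-likelihood, robust, newer dispersions, on age and sex. P-values were adjusted over 14191 genes, threshold 0.05. Log2 CPM used a prior count of 2. SE was derived from the fold change and its F statistic. The age-by-sex test used the 4 cells. Named genes were the 9 members, up to 3 further genes per list by p plus those past the threshold, and the 8 genes most and 4 least like the members at a mean log2 CPM of 3 or more. Not every gene that this rule names is reported here. Members and lists were chosen with earlier results of these data known. The test was checked on simulated counts. Alternatives were DESeq2 1.42.0, limma-voom (limma 3.58.1), other scaling, filters, dispersions and covariates, the replicate block and libraries left out.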

Additional observations from a re-analysis of the deposited data

How the results depend on the processing

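Called members numbered 0 for age in every alternative except the granule neuron score as covariate, which called 4, and 0 in the 21 alternatives run for sex and the 14 run for age by sex (not with the block, covariates or several libraries left out). Against 17 genes in all, age called 125 with DESeq2, 1 with limma-voom, 26 with older dispersions, 107 with the granule neuron score and 11 with a choroid plexus score. Alternatives chosen after seeing the data gave 250 with the oligodendrocyte score and 0 without young 2 and young 4. Without the 3 libraries richest in liver transcripts (old 2, old 3, young 4) age called 184 genes and sex 40, and without the 3 lowest in the choroid gene Ttr (old 3, young 3, young 4) age called 4. In the other oligodendrocyte lists 1, 4 and 1 genes passed with the granule score, the oligodendrocyte score and without the liver-rich libraries. DESeq2 called 1 gene for age by sex. Leaving out each library in turn gave 0 to 63 genes for age, 4 to 46 for sex and 0 to 2 for age by sex.

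Equal replicate numbers do not pair the mice (correlations 0.16, -0.22, -0.05 and -0.25, with sexes that differ for numbers 2 and 3), and only young 1 correlated best with its own number. With the replicate block 1 gene passed for age, and for sex Mobp, Cldn11 and Opalin stood at 0.0086, 0.036 and 0.086.

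Small values changed sign. For age, Mbp stood at -0.0086 with limma-voom, -0.17 with the granule score, -0.032 with the choroid score, -0.0074 without liver-rich and -0.11 without Ttr-low libraries. Ermn stood at -0.14, -0.025, -0.025 and -0.19 in the last 4 of these. Mobp stood at 0.0068 with a filter of 50 counts (which drops Opalin), 0.038 with the oligodendrocyte score, 0.027 without liver-rich and 0.014 without Ttr-low libraries. For sex, Mbp, Cldn11 and Ermn stood at 0.012, 0.064 and 0.056 with the oligodendrocyte score. Without liver-rich libraries Mbp, Cldn11, Mal and Ermn stood at 0.092, 0.10, 0.11 and 0.084, and without Ttr-low ones Mbp, Mal and Ermn at 0.080, 0.18 and 0.21. With each library left out, age ranged from -0.11 to 0.14 for Mbp, -0.16 to 0.11 for Mobp, -0.099 to 0.21 for Ermn, -0.42 to 0.021 for Cldn11 and -0.40 to 0.0053 for Mal. Sex ranged from -0.14 to 0.093 for Mbp, -0.24 to 0.027 for Mag, -0.22 to 0.042 for Mobp, -0.19 to 0.18 for Cldn11, -0.24 to 0.11 for Mal and -0.095 to 0.16 for Ermn. The cause of these changes was not tested. Opalin, at 23 to 74 counts, is the member most limited by depth.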
